A study of Homo sapiens with 6 samples.

Results

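The genes described here are 10 members of the interleukin-1 and interleukin-6 cytokine systems and IL24, a member of the interleukin-10 family. They are the ligand genes IL1A, IL1B, IL33, IL6, IL11, LIF and IL24 and the receptor chain genes IL1R1, IL6ST and OSMR. They were chosen by gene name, and each name matched exactly 1 of the 20532 rows of the deposited count table. All 10 passed the filter on low counts. RNA had been measured in cells labelled ACHN, a human renal carcinoma line, that carried a lentiviral short hairpin RNA. The labels call the cells clear cell renal cell carcinoma. The 3 libraries shDNAJC2 1, 2 and 3 carried a hairpin that lowers DNAJC2, a co-chaperone of the ribosome, and the 3 libraries shCtrl 1, 2 and 3 carried a negative control hairpin. Every library therefore came from virus-transduced cells, and neither untransduced cells nor another DNAJC2 hairpin was analysed here. The labels do not say whether the libraries of a group go back to different transductions, and p-values measure the spread between these libraries alone.

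Interleukin-1 alpha and beta, from IL1A and IL1B, signal through the receptor chain IL1R1 and an accessory chain to NF-kappaB and AP-1, and their own genes and IL6 are among the known targets of that signal. Interleukin-6, interleukin-11 and LIF share the signalling chain gp130, the product of IL6ST, which activates JAK kinases and STAT3, and OSMR pairs with gp130 to bind oncostatin M. IL24 encodes a secreted cytokine that signals through receptors built from IL20RB with IL20RA or IL22RA1. Renal carcinoma cells are known to secrete interleukin-6, and cytokine messenger RNAs of this kind are known to be short-lived, with AU-rich elements in their 3′ untranslated regions (UTRs) that recruit decay factors.

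DNAJC2 itself was at 51.2, 50.4 and 38.5 CPM (TMM-normalized counts scaled by library size) in shDNAJC2 1, 2 and 3, against 76.7, 69.8 and 86.5 CPM in shCtrl 1, 2 and 3, lower in every shDNAJC2 library than in every control. Its log2 fold change was −0.74 (edgeR adjusted p 0.429, DESeq2 adjusted p 0.036), and −0.65 without shCtrl 3 (edgeR adjusted p 0.0080). Libraries held 17491462 to 25760291 counts, so a count of 0 allows up to 3 counts, which is 0.115 to 0.179 CPM. The control library shCtrl 3 stood apart from shCtrl 1 and shCtrl 2. The main axis of variation in log2 CPM over the genes tested (first principal component) held 79.4% of the variance. On it shCtrl 1 and 2 lay at −52.6 and −51.0, and shCtrl 3 at 36.1 beside shDNAJC2 1 and 2 (34.3 and 34.6). The library shDNAJC2 3 lay between, at −1.4. For single genes, the position of shCtrl 3 was counted as follows. Over the 13988 genes tested shCtrl 3 lay nearer to the shDNAJC2 mean than to the mean of shCtrl 1 and 2 for 74.6%, on the log2 CPM scale. Fold changes are therefore given with and without shCtrl 3. Of 16 renal tubule and renal carcinoma markers, 11 had a mean of at least 1 CPM, PAX8 was at 2.82 to 4.22 CPM in shDNAJC2 and 2.98 to 4.64 CPM in shCtrl libraries, and CDH1 had 0 counts in all 6. PAX2, a renal lineage gene, had 0 counts in 5 libraries and 1 in shCtrl 3. All 8 fibroblast markers had a mean above 1 CPM, with a summed level of 1299 to 1934 CPM in shDNAJC2 and 1441 to 4548 CPM in shCtrl libraries, the lowest control value being that of shCtrl 3. With these renal markers low or absent and collagen genes abundant, the RNA does not settle the renal identity given by the labels, and levels below are those of the cells labelled ACHN. The part of the fibroblast marker difference in the results was not tested. PAX8, CDH1, PAX2, TYROBP and PTPRC were named after their values had been seen. The immune cells known for making interleukin-1 left little trace, since TYROBP had 0 counts in all libraries, PTPRC was at most 0.179 CPM, and the 8 monocyte and macrophage markers summed to 3.34 to 4.31 CPM in shDNAJC2 and 2.25 to 4.52 CPM in shCtrl libraries.

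IL1B, the gene of the secreted form of interleukin-1, and IL1A, that of the form that also acts from within the cell, lie 45160 bases apart on chromosome 2 and had the same pattern. IL1B (ENSG00000125538, 112829751 to 112836903 on GRCh38) was at 257, 260 and 286 CPM in shDNAJC2 1, 2 and 3, against 39.6, 44.4 and 271 CPM in shCtrl 1, 2 and 3. IL1A (ENSG00000115008, 112773915 to 112784590) was at 14.7, 13.9 and 16.2 CPM in shDNAJC2 1, 2 and 3, against 3.28, 4.35 and 13.6 CPM in shCtrl 1, 2 and 3. Both were low in shCtrl 1 and 2 and high in the other 4 libraries. The shCtrl 3 value lay inside the shDNAJC2 range for IL1B and just below it for IL1A, so that the groups overlapped only for IL1B. In bulk RNA, more cells that make a transcript and more transcript per cell cannot be told apart.

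Over all 6 libraries the log2 fold change was 1.18 ± 0.73 (standard error) for IL1B and 1.08 ± 0.51 for IL1A (adjusted p 0.468 and 0.430, edgeR). Without shCtrl 3 both rose, IL1B by 2.68 and IL1A by 1.97 (edgeR adjusted p 9.3e-06 and 2.3e-04). In shCtrl 3 alone IL1B was 6.46-fold and IL1A 3.56-fold over the mean of shCtrl 1 and 2. IL33, whose product is a nuclear alarmin of barrier cells, was barely detected, with 10, 8 and 9 counts in shDNAJC2 1, 2 and 3 and 5, 9 and 12 counts in shCtrl 1, 2 and 3. That is 0.358 to 0.522 CPM in shDNAJC2 and 0.205 to 0.502 CPM in shCtrl libraries. A difference in IL33 was not detectable at this depth (log2 fold change 0.35, 95% confidence interval −0.65 to 1.35, and 0.68 without shCtrl 3, edgeR adjusted p 0.265).

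**Figure D1:**
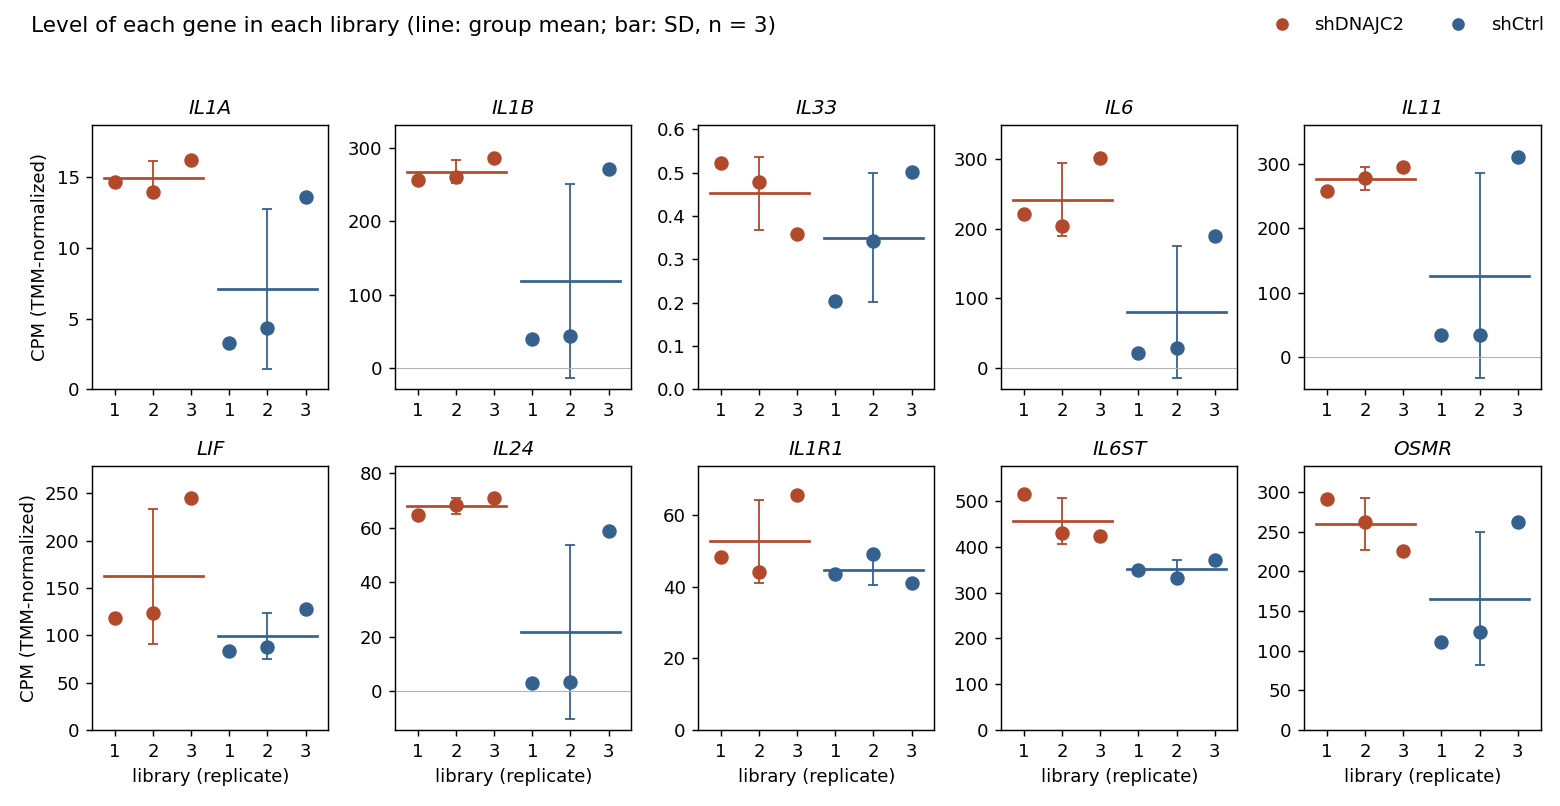
TMM-normalized CPM of the 10 genes in each library, with a linear axis per gene. Points are libraries, shDNAJC2 left of shCtrl, with a line at the group mean and a bar for the SD (n = 3 each). For IL1A, IL1B, IL6, IL11, IL24 and OSMR the points of shCtrl 1 and 2 lie low and that of shCtrl 3 lies with or near the shDNAJC2 points, while IL6ST and IL1R1 do not show that split.

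Of the gp130 ligands, IL6 and IL11 were low in the same control libraries, and LIF differed from them. IL6, the gene of the acute-phase cytokine interleukin-6 (ENSG00000136244, chromosome 7, 22725884 to 22732002), was at 221, 204 and 301 CPM in shDNAJC2 1, 2 and 3, against 21.9, 28.9 and 189 CPM in shCtrl 1, 2 and 3. IL11 (ENSG00000095752, chromosome 19, 55364389 to 55370463), whose product acts on stromal and blood-forming cells, was at 258, 278 and 295 CPM in shDNAJC2 1, 2 and 3, against 34.1, 33.7 and 310 CPM in shCtrl 1, 2 and 3. The IL6 groups did not overlap, with shDNAJC2 3 the highest library. For IL11 the highest of all libraries was shCtrl 3. The shDNAJC2 mean was 1.28-fold the shCtrl 3 level for IL6 and 0.893-fold for IL11.

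The log2 fold change over all 6 libraries was 1.60 for IL6 (standard error 0.80) and 1.14 for IL11 (standard error 0.85), with adjusted p 0.434 and 0.524 in edgeR. Without shCtrl 3 both rose, IL6 by 3.26 and IL11 by 3.03 (adjusted p 4.8e-05 and 6.0e-06, edgeR). LIF, the gene of leukaemia inhibitory factor (ENSG00000128342, chromosome 22, 30240447 to 30246851), was at 119, 124 and 245 CPM in shDNAJC2 1, 2 and 3, against 83.4, 88.1 and 128 CPM in shCtrl 1, 2 and 3. The library that set LIF apart was shDNAJC2 3, 2.02-fold over the mean of shDNAJC2 1 and 2, while shCtrl 3 lay between those 2 libraries and shDNAJC2 3. The same library was also highest for IL6 and IL1R1, by 1.42-fold for each over the mean of shDNAJC2 1 and 2. It was the highest for IL1A, IL1B and IL24 too, by less. Of all genes tested, 11.9% were at least 1.4-fold higher in shDNAJC2 3 than in that mean. LIF had a log2 fold change of 0.70 (standard error 0.32, edgeR adjusted p 0.429), which was 0.30 without shDNAJC2 3 and 0.93 without shCtrl 3, where it passed (edgeR adjusted p 0.034).

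IL24 spanned the widest range of the 10 genes. It lies on chromosome 1 (ENSG00000162892, 206897443 to 206904139) and was at 64.8, 68.4 and 70.8 CPM in shDNAJC2 1, 2 and 3, against 3.16, 3.36 and 58.7 CPM in shCtrl 1, 2 and 3. The highest library was 22.5-fold over the lowest, next to 13.7-fold for IL6, 9.20-fold for IL11 and 7.22-fold for IL1B. All shDNAJC2 libraries were above all controls, although shCtrl 3 missed the lowest of them by little and was itself 18.0-fold over the mean of shCtrl 1 and 2. The log2 fold change was 1.65 over all libraries with an interval of −0.89 to 4.19, and 4.38 without shCtrl 3, with an interval of 4.09 to 4.68 (95%, edgeR, adjusted p 0.479 and 1.7e-06). DESeq2 gave neither IL24 nor IL11 a p-value.

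Promoter sequences are shown for IL6, IL11, IL1B and IL24, the 4 ligand genes with the widest range over the 6 libraries. Each runs from 250 bases before to 50 bases after the start in RefSeq on GRCh38.p14, 5′ to 3′ on the gene's strand, with matches to the motifs searched in capitals. The windows are chr7:22726950-22727249 (plus strand) for IL6, chr19:55370414-55370713 (minus) for IL11, chr2:112836730-112837029 (minus) for IL1B and chr1:206897193-206897492 (plus) for IL24. The RefSeq start of IL6 lies inside the longer GENCODE span given for that gene.
IL6: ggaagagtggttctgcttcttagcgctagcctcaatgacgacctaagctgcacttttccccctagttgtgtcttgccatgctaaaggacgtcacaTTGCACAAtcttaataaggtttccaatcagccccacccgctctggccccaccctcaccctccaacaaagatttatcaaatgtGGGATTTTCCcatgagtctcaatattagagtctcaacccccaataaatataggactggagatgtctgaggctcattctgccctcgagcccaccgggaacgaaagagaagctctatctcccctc
IL11: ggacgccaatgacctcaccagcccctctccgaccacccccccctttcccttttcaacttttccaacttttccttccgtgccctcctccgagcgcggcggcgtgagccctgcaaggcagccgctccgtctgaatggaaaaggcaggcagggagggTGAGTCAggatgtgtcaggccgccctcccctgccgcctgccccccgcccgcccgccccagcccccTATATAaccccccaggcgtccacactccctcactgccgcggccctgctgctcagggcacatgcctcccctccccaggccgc
IL1B: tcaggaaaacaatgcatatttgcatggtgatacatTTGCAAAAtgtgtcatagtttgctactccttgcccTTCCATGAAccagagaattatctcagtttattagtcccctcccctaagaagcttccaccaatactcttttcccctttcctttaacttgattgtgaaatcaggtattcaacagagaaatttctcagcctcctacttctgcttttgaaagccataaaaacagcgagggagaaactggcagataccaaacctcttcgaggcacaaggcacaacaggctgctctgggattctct
IL24: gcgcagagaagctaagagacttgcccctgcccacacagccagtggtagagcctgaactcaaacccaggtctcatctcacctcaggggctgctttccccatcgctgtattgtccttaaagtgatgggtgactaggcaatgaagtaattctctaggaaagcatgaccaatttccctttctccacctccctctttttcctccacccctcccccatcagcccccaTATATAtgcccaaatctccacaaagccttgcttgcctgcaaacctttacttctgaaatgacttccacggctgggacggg
The motifs were AP-1 (TGAGTCA or TGACTCA), the cyclic AMP element (TGACGTCA), the ATF4 and C/EBP composite (TGATGNAA), the NF-kappaB consensus, C/EBP (TTGCNNAA) and STAT (TTCNNNGAA), all on both strands, and a TATA box (TATAAA or TATATA) on the gene's strand. Motif matches did not overlap each other in these 4 windows. IL6 held an NF-kappaB match at positions −73 to −64 from the start and a C/EBP match at −155 to −148. IL11 held an AP-1 match at −96 to −90 and a TATA match at −31 to −26. The IL1B window held C/EBP and STAT matches, and that of IL24 a TATA match at −29 to −24.

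Of the 10 genes 9 were in the promoter table, with 14 start windows between them, and LIF had no entry. AP-1 matches lay in windows of 2 of the 9 genes (IL11 and IL1A) and in 4.95% of all 35116 windows in the table. The NF-kappaB consensus was in 1 (IL6) against 5.91% of all windows, C/EBP in 4 against 10.5%, STAT in 3 against 7.66% and TATA in 3 against 10.2%. Matches to the ATF4 and C/EBP composite and the cyclic AMP element were in 0 of the 9 genes, against 3.62% and 1.85% of all windows. Only the letters given were counted, so near matches, such as ggacgtca in the IL6 window, were left out. Genes with several start windows had more chances of a match. None of the 7 motifs was matched in all 4 of the windows printed.

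Among the 3 receptor chains, shCtrl 3 lay with the other controls for IL6ST and IL1R1 and apart from them for OSMR. IL6ST (ENSG00000134352, chromosome 5, 55935095 to 55994993) was at 514, 429 and 424 CPM in shDNAJC2 1, 2 and 3, against 350, 333 and 371 CPM in shCtrl 1, 2 and 3. All shDNAJC2 libraries were above all controls, and shCtrl 3 was 1.09-fold over the mean of the other controls. Over all libraries its log2 fold change was 0.38 (95% interval 0.07 to 0.68), and 0.42 without shCtrl 3. Its unadjusted p of 0.022 did not survive adjustment over all genes (edgeR adjusted p 0.429), while without shCtrl 3 it rose (edgeR adjusted p 0.028).

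OSMR (ENSG00000145623, chromosome 5, 38845858 to 38945596), the chain for oncostatin M, was low in shCtrl 1 and 2, at 290, 262 and 226 CPM in shDNAJC2 1, 2 and 3, against 111, 124 and 262 CPM in shCtrl 1, 2 and 3. The value of shCtrl 3 lay within the shDNAJC2 range, 2.23-fold over the mean of shCtrl 1 and 2. Over all libraries the log2 fold change of OSMR was 0.65 (standard error 0.33), and 1.15 without shCtrl 3, where it rose (edgeR adjusted p 0.436 and 5.5e-04). IL1R1 (ENSG00000115594, chromosome 2, 102064544 to 102179874), the signalling receptor of interleukin-1, was at 48.3, 44.0 and 65.7 CPM in shDNAJC2 1, 2 and 3, against 43.6, 49.0 and 41.0 CPM in shCtrl 1, 2 and 3. These ranges overlapped, and the log2 fold change of 0.24 (95% interval −0.16 to 0.65) was 0.07 without shDNAJC2 3. IL1R1 did not pass with or without shCtrl 3 (edgeR adjusted p 0.505 and 0.394).

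The AU-rich pentamer ATTTA occurred at least 3 times in the annotated 3′ UTR of all 10 genes, against 41.3% of 13590 genes tested with an annotated 3′ UTR. UTR length bears on this count, with a median of 1716 bases in the 10 genes and 1072 in all genes. Among genes with a 3′ UTR within 1.2-fold of the length of that of IL6 (429 bases, 6 pentamers), 8.96% had 3 or more, and the share was 16.7% for IL1B (610 bases, 6 pentamers) and 24.9% for IL24 (806 bases, 3 pentamers). For IL11 (1618 bases, 9 pentamers) it was 55.0%, and for the long UTR of IL6ST (5987 bases, 23 pentamers) it was 97.0%. The longer nonamer TTATTTATT was in 4 of the 10 (IL1B, IL11, LIF and OSMR), with 6 copies in IL11, and in 8.38% of all genes. The 30-base stretches with the most pentamers are shown for the 4 ligands and OSMR, 5′ to 3′ as complementary DNA, with the pentamers in capitals.
IL1B: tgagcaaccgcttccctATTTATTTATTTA
IL11: ttccaaagccagatcttATTTATTTATTTA
IL6: ttttaattatttttaATTTAttaatATTTA
IL24: agattcttgtATTTAttacaactctATTTA
OSMR: gggccagtattgtcagcATTTATTTATTTA
IL1B, IL11 and OSMR carry the same run of overlapping pentamers, while those of IL6 and IL24 are single copies set apart. Of 13 genes that bind or control such elements, 2 rose and 1 fell without shCtrl 3, when 17.8% of all genes rose and 17% fell (median 0.06, and 0.07 over all libraries). ZFP36, the decay factor tristetraprolin, was at 34.1, 39.5 and 16.6 CPM in shDNAJC2 1, 2 and 3, against 12.1, 11.7 and 56.7 CPM in shCtrl 1, 2 and 3, and was named for its role after its values had been seen. It had a log2 fold change of 0.16 over all libraries and rose by 1.33 without shCtrl 3. ZFP36L1 (−0.20), RC3H2 (0.19), KHSRP (−0.23) and RC3H1 (0.20) had the smallest p of the list over all libraries, and none of these passed with or without shCtrl 3 (−0.17, 0.23, −0.11 and 0.14 without it).

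**Figure D2:**
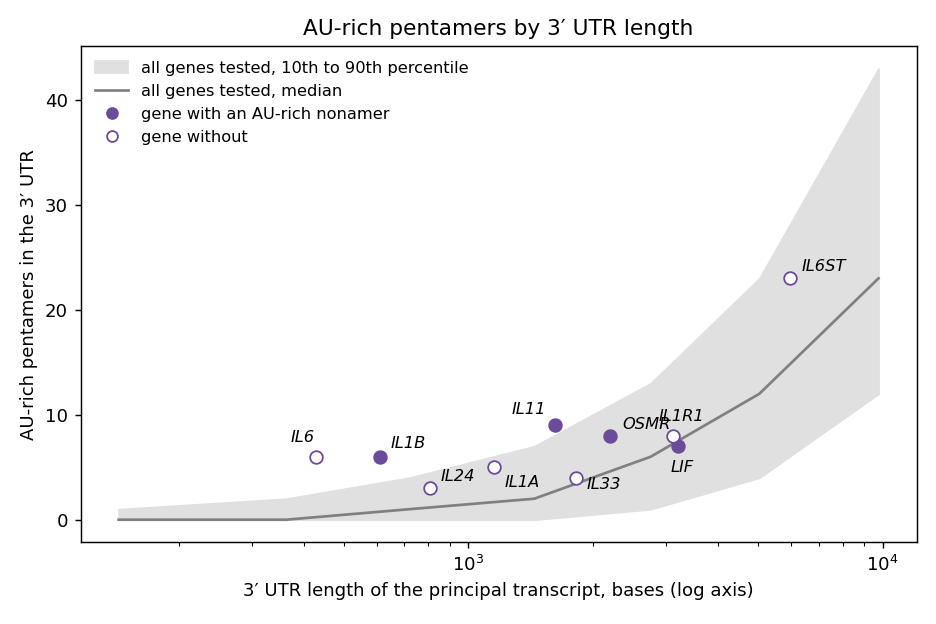
Number of AU-rich pentamers in the annotated 3′ UTR against its length on a log axis. Points are the 10 genes, filled where the UTR also holds the AU-rich nonamer, and the grey line and band are the median and the range from the 10th to the 90th percentile of all genes tested, by length class. IL6, IL1B and IL11 lie above the band, and LIF and IL1R1 lie near the line.

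Counted over the 10 genes, edgeR called 0 in all 6 libraries, as it called 0% of all genes, and 1 of the 10 (IL6ST) had an unadjusted p under 0.05, against 11.3% of all genes. limma-voom also called 0 of the 10 and 0% of all genes, and its unadjusted p was under 0.05 for 5 of the 10 and 10.5% of all genes. Of the 6 genes to which DESeq2 gave an adjusted p, it called 0, against 0.25% of all genes, and its unadjusted p was under 0.05 for 3 of the 8 with a p-value and 13.5% of all genes. Both DESeq2 shares are over all 13988 genes tested, also any to which it gave no p-value or adjusted p. The groups did not overlap for 4 of the 10, all higher in shDNAJC2 (IL1A, IL6, IL24 and IL6ST), while 7.33% of all genes tested lay apart in that direction. For these 4 the exact permutation p (two-sided) was 0.1 each, which is the smallest value possible with 3 libraries per group. All 10 log2 fold changes were positive, with a median of 0.89 against −0.02 over all genes tested.

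Without shCtrl 3, edgeR called 8 of the 10 higher and 0 lower, and of all 14201 genes tested 17.8% higher and 17% lower. The median was then 1.56 against −0.01 over all genes. Those counts set 3 knockdown libraries against 2 controls after shCtrl 3 had been seen to differ, and the 10 genes had been picked with such results known. For 4 of the 10 (IL1B, IL6, IL11 and IL24) shCtrl 3 was at least 4-fold over the mean of shCtrl 1 and 2, which held for 1.55% of all genes tested. On the log2 scale shCtrl 3 was nearer to the shDNAJC2 mean for 8 of the 10, all but IL1R1 and IL6ST, against the 74.6% of all genes given above.

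**Figure D3:**
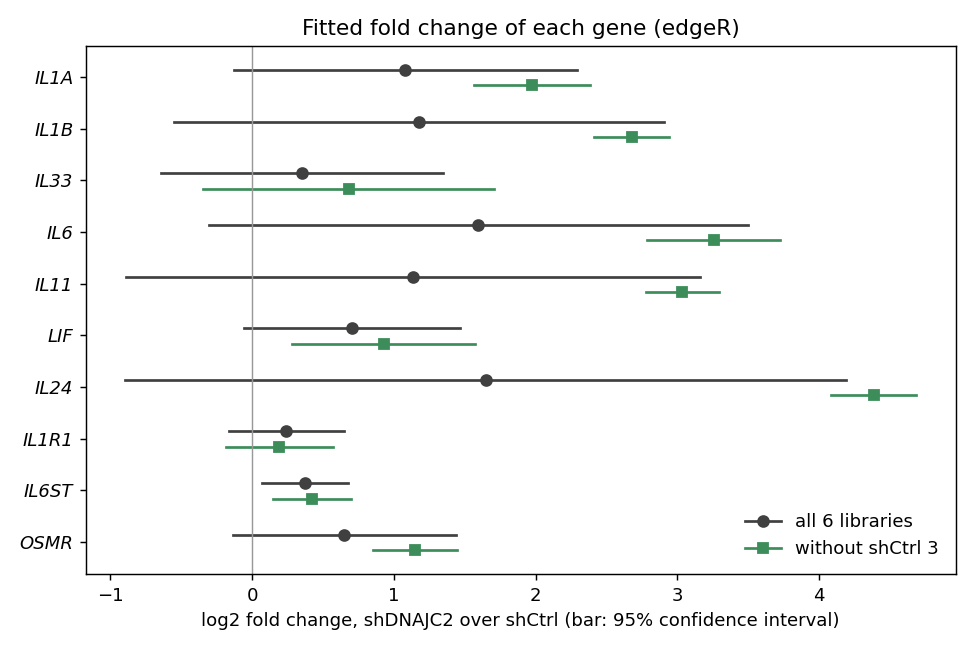
Log2 fold change of shDNAJC2 over shCtrl for each gene with its 95% confidence interval from edgeR, over all 6 libraries (circles) and without shCtrl 3 (squares). Over all libraries the interval excludes 0 for IL6ST only. Without shCtrl 3 the values reach 4.38 for IL24, and the intervals of IL33 and IL1R1 still include 0.

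Levels can be set against each other per kilobase of the longest annotated transcript. On that scale the ligands IL1B, IL6 and IL11 were the most abundant of the 10 in the shDNAJC2 group, at means of 164, 158 and 122 CPM per kb. The range of IL6 over the shDNAJC2 libraries (134 to 197) held that of IL1B (158 to 175), so their order is not settled, while the shDNAJC2 range of IL11 (113 to 129) lay below both. Next came IL6ST, OSMR, LIF and IL24 at 50.3, 46.8, 40.9 and 37.4 CPM per kb, with overlapping ranges between neighbours. IL1R1 at 10.2, IL1A at 7.03 and IL33 at 0.171 CPM per kb stood below them without overlap. Over the shCtrl means IL1B (72.6), IL11 (55.3) and IL6 (52.4) came first too, each with shCtrl 3 far above the other controls. In shCtrl 1 and 2 the gp130 chain IL6ST was the highest, at 38.6 and 36.7 CPM per kb, above IL1B at 24.3 and 27.2, and IL24 was down at 1.73 and 1.85 CPM per kb.

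The partner chains that these ligands need were low per kilobase of the longest annotated transcript, or not detected. They were named for their role after their values had been seen. The interleukin-6 receptor chain IL6R averaged 1.05 CPM per kb in shDNAJC2 and 0.804 in shCtrl, the interleukin-11 chain IL11RA 1.64 in shDNAJC2 and 2.88 in shCtrl, and the LIF receptor LIFR 2.25 in shDNAJC2 and 2.08 in shCtrl. The interleukin-1 accessory chain IL1RAP averaged 2.87 CPM per kb in shDNAJC2 and 2.09 in shCtrl. Before division by length, LIFR was at 20.4 to 24.5 CPM and IL1RAP at 10.2 to 18.8 CPM over the 6 libraries, so both were clearly detected. Of the secreted antagonist and the decoy receptor of interleukin-1, IL1RN had 6 to 30 counts in shDNAJC2 and 6 to 13 in shCtrl libraries, and IL1R2 had at most 4. Of the chains for interleukin-24, IL20RB was present at 2.07 CPM per kb in shDNAJC2 and 1.81 in shCtrl, whereas IL20RA had 0 counts in each shDNAJC2 library and at most 3 in a control, and IL22RA1 had at most 2 in shDNAJC2 and 4 in shCtrl libraries. Values for the decoy, IL20RA and IL22RA1 lie near the detection floor.

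**Figure D4:**
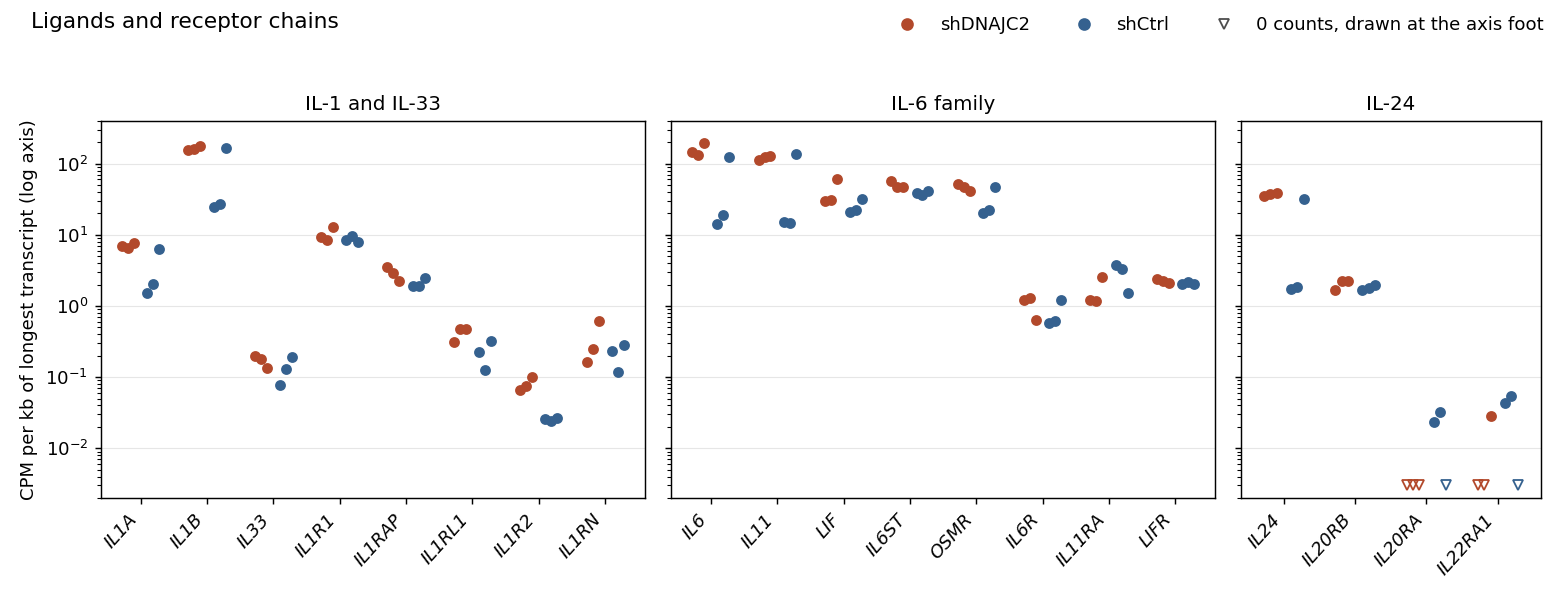
Level of each ligand and receptor chain gene in each library, as CPM per kb of the longest annotated transcript on a log axis, shDNAJC2 left of shCtrl. Points are libraries, and open triangles mark libraries with 0 counts, placed at the foot of the axis. IL1B, IL6 and IL11 lie above 100 CPM per kb in all shDNAJC2 libraries, while the partner chains IL6R, IL11RA, LIFR and IL20RB lie below 5 and IL20RA and IL22RA1 at or near 0.

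In the wider pathway lists, 118 genes in all, edgeR called 0 of the 86 tested over all 6 libraries. Of these 86, 15 had an unadjusted p under 0.05 in edgeR, against 11.3% of all genes. Without shCtrl 3, 21 rose and 20 fell of 87 tested, next to 17.8% and 17% of all genes. Of the genes that mature and release interleukin-1, 6 fell and 2 rose of 10 tested without shCtrl 3 (median −0.48, and −0.36 over all libraries). Among them CASP1, the protease that activates interleukin-1 beta, was at 22.2, 20.6 and 24.5 CPM in shDNAJC2 1, 2 and 3, against 41.5, 43.3 and 18.2 CPM in shCtrl 1, 2 and 3. The calpain gene CAPN1 was at 93.0, 109 and 112 CPM in shDNAJC2 1, 2 and 3, against 159, 175 and 118 CPM in shCtrl 1, 2 and 3, a log2 fold change of −0.52 (standard error 0.17) over all libraries and of −0.67 without shCtrl 3. Here the groups did not overlap for CAPN1 and did for CASP1, for which shCtrl 3 was the lowest of the 6. CASP1 was named for its role after its values had been seen, with log2 fold changes of −0.61 over all libraries and −0.91 without shCtrl 3. The inflammasome sensor NLRP1, the pore gene GSDMD and the adaptor gene PYCARD had log2 fold changes of −0.73, −0.59 and −0.72 over all libraries and of −0.98, −0.79 and −1.03 without shCtrl 3. All 5 of these genes fell in the fit without shCtrl 3 and did not pass over all libraries.

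Downstream of the interleukin-1 receptor, 3 of 16 genes rose and 2 fell without shCtrl 3, with a median of 0.19 (0.09 over all libraries). In that fit 17.8% of all genes rose and 17% fell. MYD88, the adaptor that starts the signal, was at 43.4, 43.6 and 49.2 CPM in shDNAJC2 1, 2 and 3, against 84.7, 93.8 and 44.0 CPM in shCtrl 1, 2 and 3. It had a log2 fold change of −0.71 over all libraries and fell by 0.97 without shCtrl 3, while the ubiquitin ligase gene PELI2 had one of 0.83 over all libraries and rose by 1.33 without shCtrl 3. TAB3, which links TRAF6 to its kinase, and TRAF6 itself had log2 fold changes of 0.27 and 0.28 over all libraries, with no overlap between groups, and of 0.29 and 0.30 without shCtrl 3, where neither passed. Of 11 other interleukin-1 family genes tested without shCtrl 3, 3 rose and 1 fell (median −0.03, and 0.24 over the 10 tested in all libraries). The interleukin-18 receptor chain IL18R1 was at 9.65, 9.39 and 9.74 CPM in shDNAJC2 1, 2 and 3, against 4.96, 4.39 and 8.16 CPM in shCtrl 1, 2 and 3, a log2 fold change of 0.72 over all libraries and of 1.04 without shCtrl 3. Its partner IL18RAP, the IL-18 binding protein gene IL18BP and the interleukin-33 receptor gene IL1RL1 had log2 fold changes of 1.07, −0.40 and 0.90 over all libraries. Without shCtrl 3 these were 1.09, −0.48 and 1.27, and there IL18R1 and IL1RL1 rose, IL18BP fell and IL18RAP did not pass. Counts were low for IL18RAP (11 to 14 in shDNAJC2 and 6 to 8 in shCtrl libraries) and for IL1RL1 (24 to 47 in shDNAJC2 and 13 to 31 in shCtrl libraries).

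Downstream of gp130, 3 of 15 genes rose and 6 fell without shCtrl 3, next to 17.8% and 17% of all genes. The median was −0.14 both with and without shCtrl 3. STAT3 was lower in each shDNAJC2 library than in each control, at 89.8, 85.2 and 86.0 CPM in shDNAJC2 1, 2 and 3, against 120, 125 and 91.1 CPM in shCtrl 1, 2 and 3. SOCS2, a feedback inhibitor, was higher in each, at 50.0, 45.3 and 43.1 CPM in shDNAJC2 1, 2 and 3, against 24.8, 23.3 and 39.0 CPM in shCtrl 1, 2 and 3. The log2 fold change was −0.36 for STAT3 and 0.67 for SOCS2 over all libraries, with standard errors of 0.14 and 0.21. Without shCtrl 3, STAT3 fell by 0.49 and SOCS2 rose by 0.94 (edgeR adjusted p 0.0043 and 7.2e-04). The phosphatase gene PTPN2 had a log2 fold change of 0.38 over all libraries and rose by 0.55 without shCtrl 3. SOCS3, the best known feedback target of STAT3, was at 34.0, 41.4 and 34.7 CPM in shDNAJC2 1, 2 and 3, against 36.9, 38.7 and 45.5 CPM in shCtrl 1, 2 and 3. It was named for that role after its values had been seen, and its log2 fold change of −0.14 had a standard error of 0.13 and was −0.04 without shCtrl 3, passing in neither fit.

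The STAT3 and acute-phase list had 9 of 18 genes tested, of which 5 rose and 2 fell without shCtrl 3 (median 0.45, and 0.22 over all libraries). The shares of all genes beside this count and those of the next 2 lists were 17.8% that rose and 17% that fell. The liver acute-phase genes CRP, FGA, FGB and FGG had 0 counts in all libraries and were named for that. BCL3 was at 11.9, 14.4 and 20.1 CPM in shDNAJC2 1, 2 and 3, against 33.6, 36.9 and 20.9 CPM in shCtrl 1, 2 and 3, with a log2 fold change of −0.97 over all libraries and −1.18 without shCtrl 3. CEBPD, an acute-phase transcription factor gene, had one of −1.26 over all libraries, and fell by 1.59 without shCtrl 3, where BCL3 fell too. The alpha-2-macroglobulin gene A2M and the serum amyloid gene SAA1 had log2 fold changes of 0.39 and 0.42 over all libraries and of 0.69 and 0.45 without shCtrl 3, where A2M rose and SAA1 did not pass. Other ligand and receptor genes of the interleukin-6 family numbered 3 that rose and 1 that fell of 11 without shCtrl 3 (median 0.10, and 0.11 over all libraries). Among them ADAM17, the protease that sheds the interleukin-6 receptor, had a log2 fold change of 0.39 over all libraries, the cardiotrophin gene CTF1 one of −0.30 and IL11RA one of −0.80. Without shCtrl 3, ADAM17 rose by 0.59, IL11RA fell by 1.08, and CTF1 at −0.24 did not pass. Of the other interleukin-10 family genes, 2 of 11 were tested, IL10RB (−0.22) and IL20RB (0.20). Without shCtrl 3 IL10RB fell by 0.35 and IL20RB at 0.28 did not pass, so 0 rose and 1 fell (median −0.04, and −0.01 over all libraries).

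Some tested neighbouring or overlapping genes on the opposite strand were also lowest in shCtrl 1 and 2. They were FCMR at IL24, STEAP1B and TOMM7 at IL6, RICTOR at OSMR and IL31RA at IL6ST. RANBP6 at IL33, RAPGEF5 at IL6 and LIFR at OSMR, also tested and on the opposite strand, were not. RANBP6 was at 22.6 to 35.7 CPM in shDNAJC2 libraries, against 40.7, 43.6 and 18.9 CPM in shCtrl 1, 2 and 3. RAPGEF5 stayed below 1 CPM, and LIFR was at 21.0 to 24.5 CPM in shDNAJC2 and 20.4 to 21.9 CPM in shCtrl libraries. FCMR, which encodes a receptor for immunoglobulin M, converges on IL24 and has its end 246 bases from that of IL24. FCMR was at 20.0, 20.6 and 21.1 CPM in shDNAJC2 1, 2 and 3, against 3.24, 3.17 and 16.1 CPM in shCtrl 1, 2 and 3. It had a log2 fold change of 1.46 over all libraries and rose by 2.69 without shCtrl 3 (edgeR adjusted p 2.7e-05), whereas IL20 on the other side of IL24 had at most 5 counts in any library. STEAP1B overlaps the start of IL6 with 46 shared exonic bases and was at 24.6, 25.5 and 32.7 CPM in shDNAJC2 1, 2 and 3, against 7.13, 7.48 and 24.6 CPM in shCtrl 1, 2 and 3. STEAP1B had a log2 fold change of 1.08 over all libraries and rose by 1.92 without shCtrl 3 (edgeR adjusted p 1.9e-04). TOMM7, 80625 bases beyond the end of IL6, was at 94.1 to 101 CPM in shDNAJC2 libraries. It was at 79.2, 76.2 and 80.9 CPM in shCtrl 1, 2 and 3, so its shCtrl 3 value lay with the other controls, unlike that of IL6. RICTOR, which encodes a subunit of an mTOR kinase complex, shares 229 exonic bases with OSMR, 3.19% of those of OSMR. RICTOR was at 54.4, 48.8 and 44.8 CPM in shDNAJC2 1, 2 and 3, against 31.2, 26.6 and 39.7 CPM in shCtrl 1, 2 and 3. Its log2 fold change was 0.60 over all libraries, and it rose by 0.77 without shCtrl 3 (edgeR adjusted p 0.0027). The strand setting of the counting was not given in the sources used here, so reads of IL6 and STEAP1B, reads of OSMR and RICTOR, and reads that run past the annotated ends of IL24 and FCMR, could not be told apart. Beside IL6ST, the interleukin-31 receptor gene IL31RA was low, at 3.53 to 4.90 CPM in shDNAJC2 and 2.38 to 4.56 CPM in shCtrl libraries. CKAP2L beside IL1A was at 84.6 to 98.1 CPM in shDNAJC2 and 73.0 to 110 CPM in shCtrl libraries, with shCtrl 3 the lowest, and OSM beside LIF had at most 1 count. Antisense genes overlap 20.7% of the exonic bases of IL6 and 8.58% of those of IL6ST. Genes in this paragraph were taken by position, and were grouped by their levels in shCtrl 1 and 2 after their values had been seen.

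Likeness over the 6 libraries was measured as the root mean square difference between log2 CPM profiles, each centred on its own mean, over 10963 other genes with a mean of at least 5 CPM. The 3 nearest profiles to IL1B were those of G0S2 (0.06), TNFSF15 (0.08) and FCMR (0.16), next to a root mean square of 1.26 for IL1B itself. Nearest to IL1A were STEAP1B (0.13), AKR1C1 (0.13) and PID1 (0.14), and nearest to OSMR were CHMP1B (0.04), SLC39A14 (0.04) and EPRS1 (0.05). For IL6 they were TNFSF15 (0.25), CA9 (0.30) and ALDH1L2 (0.31), and for IL11 SLC6A9 (0.16), G0S2 (0.19) and ALDH1L2 (0.19). IL24 was nearest to ASNS (0.28), the asparagine synthetase gene, PSAT1 (0.31) of serine synthesis and VLDLR (0.33), which were lower in shDNAJC2 3 than in shDNAJC2 1 and 2 while IL24 was not. LIF, with its peak in shDNAJC2 3, was nearest to PFKFB4 (0.08), ABHD17C (0.14) and MBP (0.15). IL1R1 was nearest to PAQR5 (0.06), ZNF354B (0.07) and TNFRSF11B (0.08), and IL6ST to HAUS6, KLHL8 and CD2AP (0.02 each).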

How the data were processed

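RNA enriched for mRNA from ACHN cells had been sequenced as 6 paired-end libraries, per the labels' protocols, and the authors deposited raw counts of reads per gene with no normalization, as whole numbers whose totals differ between libraries. Per the submitters' processing notes the genome build was GRCh38 (hg38). The sources used here do not give the aligner, counting program, annotation or strand setting. Columns were matched by library title.

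Tests across genes used edgeR 4.0.16 under R 4.3.3 (quasi-likelihood F test, two-sided, TMM, filterByExpr, Benjamini-Hochberg over all genes tested, threshold 0.05), with group as the only term. Log2 CPM used a prior count of 2. Alternatives were DESeq2 1.42.0, limma-voom (limma 3.58.1), other size factors, no filter, a replicate block and leaving out each library. Scripts were tested on simulated data. Floors cover counting error only, and intervals of fold changes the spread between libraries. Of 20532 genes, 20279 matched GENCODE 29 by identifier, which gave coordinates, lengths of the longest transcript, and 3′ UTRs of the principal transcript, which need not be the one expressed. Promoters were RefSeq's. The 10 genes and all lists were chosen with earlier results of these data known. The text names all 10 genes and, from each list, up to 4 genes with the smallest p (some of these are not reported here), and the 3 nearest profiles per gene with a mean of at least 5 CPM. Neighbouring and overlapping genes were taken by position, and other names, the marker genes among them, were chosen after their values were seen.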

Additional observations from a re-analysis of the deposited data

How the results depend on the processing

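All 10 log2 fold changes stayed positive under all 11 alternatives. edgeR with other size factors or no filter, and limma-voom, called 0 genes in all. DESeq2 called 35 (6 higher, 29 lower), none of the 10, and passed DNAJC2 at −0.73 (adjusted p 0.036). Leaving out one library at a time, the calls ranged from 0 to 4945 over all genes, from 0 to 8 among the 10 and from 0 to 41 in the other pathway lists, and each count above 0 came from the fit without shCtrl 3. The median of the 10 ranged from 0.65 to 1.56, and DNAJC2 from −0.81 to −0.60, passing without shCtrl 3 alone (−0.65). limma-voom, which averages log values, gave IL24 3.02, IL11 1.97 and IL1B 1.78, against 1.65, 1.14 and 1.18 in edgeR. Without shCtrl 1 or shCtrl 2, IL11 was at 0.70. Deviations of same-numbered libraries from their group means correlated negatively across genes (r of −0.38, −0.52 and −0.66). Deviations sum to 0 within a group, and shCtrl 3 weighs heavily on them. These r values therefore cannot decide whether same-numbered libraries were paired. With a replicate block edgeR called 0 genes, 0 of the 10 and 0 in the other lists, with a median of 1.06, IL24 at 3.10, IL11 at 2.04 and DNAJC2 at −0.74. A design of 3 against 3 in which 1 control differs leaves wide intervals for IL24, IL11 and IL6, and counts of 5 to 12 limit IL33.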
